A study of Mus musculus with 6 samples.

Results

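Cytosolic ribosomal protein genes were taken from the gene tables of an islet RNA-Seq data set by their names. They are the protein-coding genes named Rpl or Rps with a number, Rplp0, Rplp1, Rplp2 and Rpsa, without the S6 kinase genes and without a binding protein of Rps19. The rule found 86 of the 41710 genes in the tables, of which 52 were assigned by name to the large and 34 to the small subunit of the ribosome. TRPM7 is an ion channel fused to a protein kinase, and islets were compared between WT mice and Trpm7R/R mice, which carry an inactive kinase in all tissues because of an amino acid exchange at its active site. The 3 WT and 3 Trpm7R/R mice were littermates on a C57BL/6 background that received an obesogenic diet with 45% of energy from fat (HFD) for 16 weeks from 8 weeks of age. Islets were kept in RPMI medium with serum before lysis, and each mouse gave 1 library, numbered 1, 2 and 3 for WT and 4, 6 and 8 for Trpm7R/R.

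Each ribosomal protein is present as a single copy per ribosome, apart from those of the lateral stalk, and cells make the set in matched amounts. Most of their mRNAs start with a cytosine followed by a run of pyrimidines, the terminal oligopyrimidine (TOP) motif, through which mTORC1 and the protein LARP1 set their translation and stability. In islets, β cells devote much of their protein synthesis to insulin.

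The start sites of members on which the results turn are shown because the TOP motif is the feature that ties these genes together. Each sequence holds 15 bases before and 15 bases from the RefSeq start (GRCm38.p6), and capitals mark a C followed by at least 4 further pyrimidines that begins within 5 bases of that start.
Rpl35: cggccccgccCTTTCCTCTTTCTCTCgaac
Rplp2: tgcgtcagcgtCTTCCTTTCgccgccggac
Rpl13a: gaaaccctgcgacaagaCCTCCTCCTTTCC
Rpl12: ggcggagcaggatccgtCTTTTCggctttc
Rps6: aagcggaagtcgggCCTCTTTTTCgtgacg
Rps18: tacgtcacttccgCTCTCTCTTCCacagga
Rps27: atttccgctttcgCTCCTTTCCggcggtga
Rps27rt: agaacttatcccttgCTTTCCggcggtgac
Rplp0: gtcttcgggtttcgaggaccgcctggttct
Rps3a1: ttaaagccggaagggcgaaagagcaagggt
Rpl39l: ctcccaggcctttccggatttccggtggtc
Rpl35 and Rps6 had some of the most negative log2 fold changes and carry the run. So does Rpl12, which was among the members with the least difference between the genotypes in exon reads. Rplp0 and Rps3a1, whose log2 fold changes were as negative as that of Rps6 or more so, have no such run at the annotated start, and neither has Rpl39l. The RefSeq promoter table held 66 of the 86 members. The motif was present at a start of 31 of them (47.0%), against 21.1% of all other genes in that table. A run that begins more than 5 bases from an annotated start was not counted. Members listed as without the run may therefore still carry it at the start used in islets, which was not measured. CGGAAG, the core that ETS factors bind, lay on either strand of a 300 base window around a start in 65.2% of the 66 members. The share was 18.7% of all other genes in the promoter table and 25.5% of those that passed the filter on low counts described below. The median log2 fold change, Trpm7R/R against WT, was -1.45 over the 31 members with the run and -1.32 over the 35 without it, in the fit that kept all members. Values ranged from -2.34 to 0.22 with the run and from -2.09 to 0.62 without it, so they overlapped. Over the 20 members not in the promoter table the median was -1.52.

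Reads of the whole series set the frame for these values. Libraries held between 17213285 and 20307909 mapped reads and between 1312128 and 2135466 exon reads, and introns took 75.7% to 84.2% of gene reads. Genes named Gm with a number took 53.8%, 53.4% and 71.2% of exon reads in WT and 68.3%, 69.3% and 61.3% in Trpm7R/R. The background is the median density of intron reads over 5181 autosomal genes with at least 50000 bases of intron. Exon-exon reads, which span a splice junction and so come from spliced RNA, were fewer in every Trpm7R/R library outside the members too, with 281 to 425 RPM (reads scaled to the mapped reads of the library, as RPKM but without the exon length) against 761 to 1582 RPM in WT. Markers of endocrine cells were at 342 to 745 RPM of exon reads in Trpm7R/R and 1138 to 2733 in WT, so islet cells were present in all libraries. Intron reads on chromosome X stood at 1.76 and 1.64 times the background in Trpm7R/R replicates 6 and 8 and those on Y at 0.0524 and 0.0416 times, while the other 4 libraries had 0.652 to 0.925 times on X and 0.908 to 1.48 times on Y. Genotype and sex were therefore partly mixed, and where a value is given for Trpm7R/R replicate 4 it comes from the library of this genotype with Y reads. In bulk samples, fewer cells of a type and less RNA per cell cannot be told apart.

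Ribosomal protein reads were lower in all 3 Trpm7R/R libraries than in any WT library. The members together had 6310, 10604 and 5057 exon reads in WT replicates 1, 2 and 3, and 2932, 2095 and 2805 in Trpm7R/R replicates 4, 6 and 8. The mean was 397 ± 163 (SD, n = 3) RPM for WT and 142 ± 26.0 (SD, n = 3) for Trpm7R/R, a log2 ratio of -1.48 or a 2.79-fold lower level. The groups did not overlap, WT replicate 2 stood above the other WT libraries, and replicate 4, the highest of the Trpm7R/R libraries, was below the lowest WT library. Without WT replicate 2 the log2 ratio was -1.10. Intron reads of the same genes overlapped between the genotypes, with 776, 890 and 983 in WT and 1105, 723 and 890 in Trpm7R/R, between 0.799 and 1.11 times the background in all 6 libraries. At background density the members' exons would hold 667 to 874 reads per library, and with these taken off the mean was 354 ± 163 (SD, n = 3) RPM for WT and 99.2 ± 20.6 (SD, n = 3) for Trpm7R/R.

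**Figure D1:**
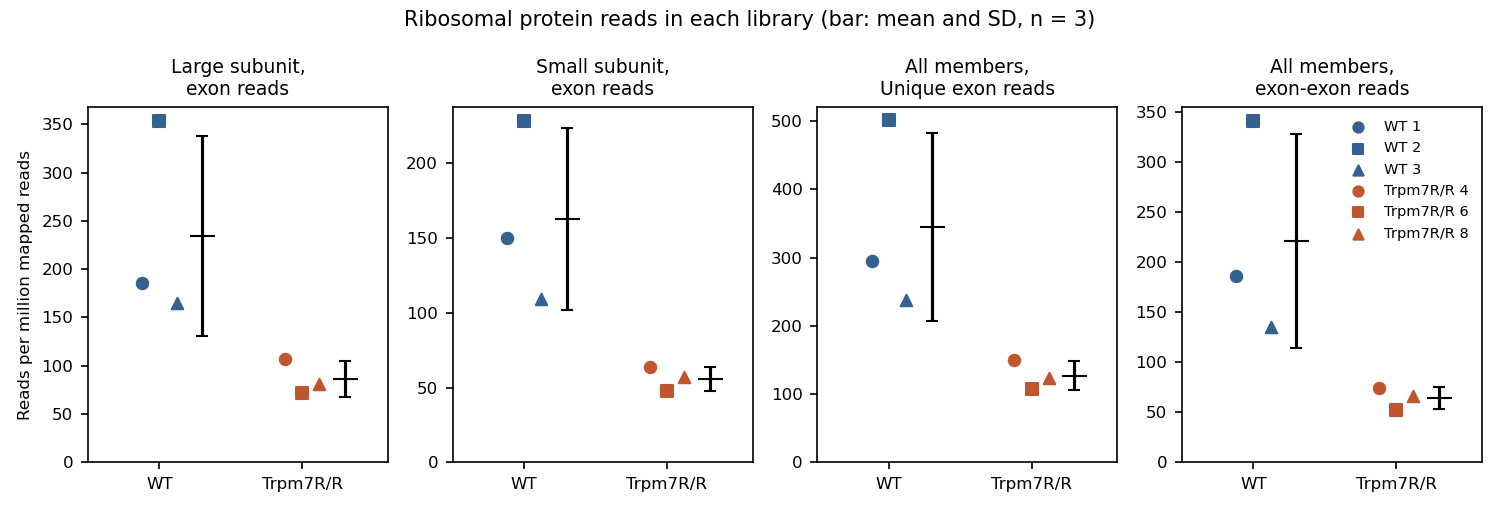
RPM in each library for the large and small subunit genes (Total exon reads), all members (Unique exon reads) and all members (exon-exon reads), with 1 point per library and the mean and SD beside each group of 3. All Trpm7R/R points lie below all WT points in the 4 panels, and WT replicate 2 is the highest WT point in each.

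Large and small subunit genes were lower to a similar degree. The large subunit genes had 3487, 6444 and 3049 exon reads in WT and 1841, 1258 and 1648 in Trpm7R/R. The small subunit genes had 2823, 4160 and 2008 in WT and 1091, 837 and 1157 in Trpm7R/R. In both subunits the highest Trpm7R/R library was below the lowest WT library, and the log2 ratios of RPM were -1.44 for the large and -1.54 for the small subunit. The ratio of large to small subunit reads averaged 1.43 ± 0.173 (SD, n = 3) for WT and 1.54 ± 0.135 (SD, n = 3) for Trpm7R/R, and its values overlapped between the genotypes.

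Single members were tested with the quasi-likelihood test of edgeR on exon reads over all genes that passed a filter on low counts. Of the 86 members 78 passed, and all 78 had a negative log2 fold change, with a median of -1.45 beside 0.01 over the 11674 genes tested. These 11674 genes stood at a median of 1.1 times the background, against 5.43 times for the 78 members. Shares over all genes therefore come in large part from genes close to the background, and other genes with spliced reads are compared further below. The lowest adjusted p of a member was 0.0516, so that 0 members were called at the limit of 0.05, in a fit that called 0.0257% of all genes lower. The likelihood ratio test of edgeR called 40 members lower, and the Wald test of DESeq2 called 29, where these tests called 1.38% and 0.831% of all genes lower. At an unadjusted p under 0.05 the quasi-likelihood test had 68 members lower and 0 higher, against 4.57% of all genes lower. The 78 include members that passed through their WT counts, so the same fit without the filter is given for all 86. There 84 log2 fold changes were negative, 70 were lower at an unadjusted p under 0.05 beside 3.55% of all 31854 genes, and 24 were called after adjustment beside 0.411%. Medians by subunit were -1.32 for the 52 large and -1.48 for the 34 small subunit genes. In raw exon reads every Trpm7R/R library was below every WT library for 63 of the 86 members, beside 5.13% of all genes with a read.

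**Figure D2:**
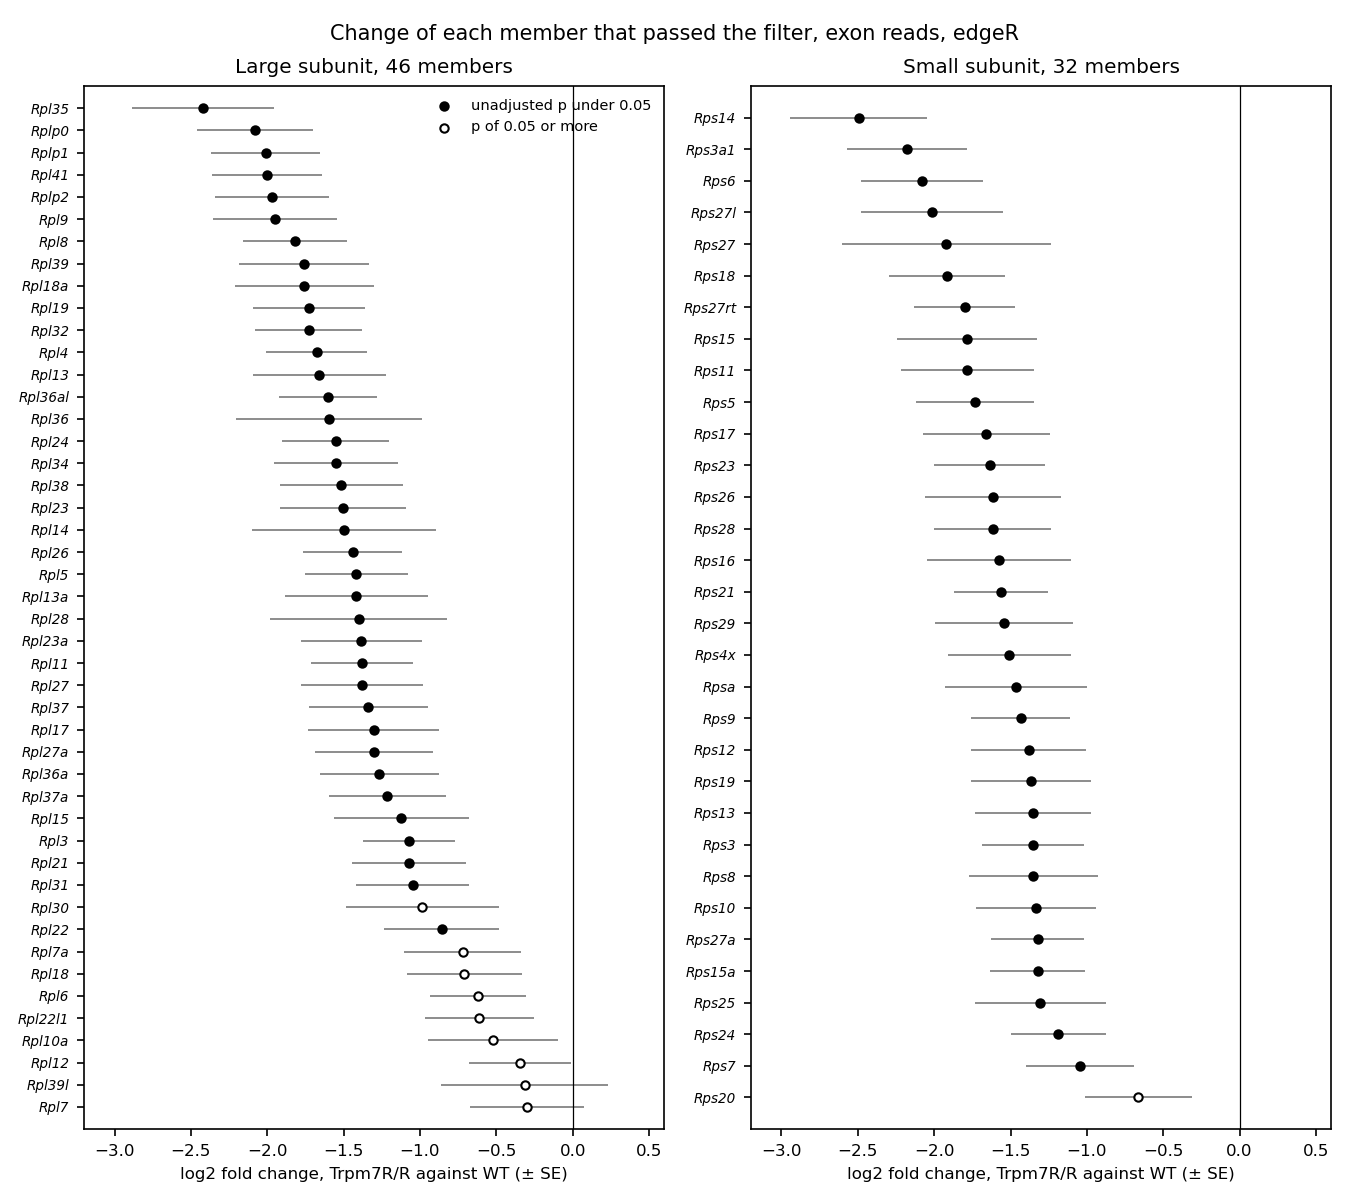
The log2 fold change of exon reads, Trpm7R/R against WT, with its SE from edgeR, for the 46 large and 32 small subunit genes that passed the filter, 1 point per gene on a log2 axis in reads. All points lie below 0, from -2.49 for Rps14 to -0.30 for Rpl7, and filled points, 68 of 78, have an unadjusted p under 0.05.

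Rplp0, Rplp1 and Rplp2 of the large subunit's stalk, which recruits translation factors, had some of the most negative log2 fold changes. Rpl12, at the foot of the stalk, was at -0.35. Rplp1 (chromosome 9), a stalk protein with the second highest mean RPKM of all members, had 114, 228 and 117 exon reads in WT and 46, 22 and 43 in Trpm7R/R, with a log2 fold change of -2.01 ± 0.36 (SE, edgeR adjusted p = 0.0516). Rplp0 (chromosome 5), the stalk's base, had 175, 185 and 66 in WT and 31, 29 and 37 in Trpm7R/R, with a log2 fold change of -2.08 ± 0.38 (SE, edgeR adjusted p = 0.0516). In both genes the genotypes did not overlap, and for Rplp0 it was WT replicate 3 that came nearest to Trpm7R/R. Rplp2 (chromosome 7), the partner of Rplp1, is named after its values were seen and had 89, 231 and 109 against 39, 26 and 41 reads, with a log2 fold change of -1.97 ± 0.37 (SE, edgeR adjusted p = 0.0542). Elsewhere in the large subunit, Rpl41 (chromosome 10), the shortest ribosomal protein, had 90, 111 and 65 reads in WT and 23, 12 and 30 in Trpm7R/R, with a log2 fold change of -1.999 ± 0.36 (SE, edgeR adjusted p = 0.0516). Rpl8 (chromosome 15), which lies near the peptidyl transferase centre, had 86, 172 and 89 in WT and 32, 27 and 36 in Trpm7R/R, with a log2 fold change of -1.82 ± 0.34 (SE, edgeR adjusted p = 0.0516). The most negative value of the large subunit belonged to Rpl35 (chromosome 2), at the exit of the peptide tunnel and also named after its values were seen, with 58, 135 and 40 reads in WT against 13, 9 and 20, a log2 fold change of -2.42 ± 0.47 (SE, edgeR adjusted p = 0.0579).

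In the small subunit Rps14 (chromosome 18), whose human counterpart is lost with part of a chromosome in a form of myelodysplastic syndrome, had the most negative log2 fold change of all members. It had 312, 256 and 98 exon reads in WT and 22, 31 and 62 in Trpm7R/R, with a log2 fold change of -2.49 ± 0.45 (SE, edgeR adjusted p = 0.0516). Its WT range was wide, and WT replicate 3 stood nearer to Trpm7R/R replicate 8 than to the other WT libraries. Rps3a1 (chromosome 3) had 126, 109 and 74 reads in WT and 16, 13 and 38 in Trpm7R/R, with a log2 fold change of -2.18 ± 0.39 (SE, edgeR adjusted p = 0.0516). Rps6 (chromosome 4), the protein that S6 kinases phosphorylate downstream of mTORC1, had 52, 34 and 33 reads in WT and 9 in each Trpm7R/R library, with a log2 fold change of -2.08 ± 0.40 (SE, edgeR adjusted p = 0.0579). For both genes the lowest WT library was above the highest Trpm7R/R library.

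Other members differed little between the genotypes in exon reads. Rpl7 (chromosome 1) had 68, 44 and 32 reads in WT and 26, 39 and 48 in Trpm7R/R, with a log2 fold change of -0.30 ± 0.37 (SE, edgeR adjusted p = 1.00), and its sign turned to 0.11 without WT replicate 1. Rpl12 (chromosome 2), at the foot of the stalk and named after its values were seen, had 45, 81 and 86 in WT and 70, 39 and 54 in Trpm7R/R, with a log2 fold change of -0.35 ± 0.34 (SE, edgeR adjusted p = 1.00). In exon reads the genotypes overlapped for both. In exon-exon reads they did not. Rpl7 had 21, 19 and 15 such reads in WT and 8, 11 and 4 in Trpm7R/R. Rpl12 had 25, 52 and 33 in WT and 14, 19 and 24 in Trpm7R/R. Scaled to mapped reads, the log2 fold changes of exon-exon reads were -1.21 for Rpl7 and -0.95 for Rpl12. Of the members that passed the filter, 10 had an unadjusted p of 0.05 or more. Of these, 9 were among the 46 large subunit genes that passed (Rpl6, Rpl7, Rpl7a, Rpl10a, Rpl12, Rpl18, Rpl22l1, Rpl30 and Rpl39l). The remaining 1 was Rps20, among the 32 small subunit genes that passed. These misses do not show that the genotypes were alike, as the SE of these members lay between 0.31 and 0.55. In exon-exon reads scaled to mapped reads, Rpl18 (-2.01, edgeR adjusted p = 0.00533) and Rpl6 (-1.43, edgeR adjusted p = 0.0269) were called lower. Rpl7, Rpl12, Rpl30 and Rps20 were not called there, and the rest did not pass its filter. That fit also called 59.3% of the 118 genes tested that are not members.

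WT replicate 2 was the highest WT library for 65 of the 86 members, but by very different amounts. Rpsa (chromosome 9), a small subunit protein also known as a laminin receptor precursor, had 226, 760 and 209 exon reads in WT and 214, 88 and 117 in Trpm7R/R. Rpl13a (chromosome 7), a large subunit protein, had 157, 622 and 221 in WT and 192, 73 and 98 in Trpm7R/R. Rpl36 (chromosome 17), a large subunit protein among the 3 members with the highest mean RPKM, had 29, 171 and 58 in WT and 53, 10 and 20 in Trpm7R/R. In these genes replicate 2 was far above the other WT libraries and replicate 4 above the other Trpm7R/R libraries, so that the exon reads of the genotypes overlapped in all 3 genes. Their log2 fold changes were -1.46 ± 0.46 for Rpsa, -1.42 ± 0.47 for Rpl13a and -1.60 ± 0.61 for Rpl36 (SE, edgeR adjusted p between 0.335 and 0.571). Without WT replicate 2 they were -0.59 for Rpsa, -0.60 for Rpl13a and -0.62 for Rpl36. Without Trpm7R/R replicate 4 they were -1.87, -1.88 and -2.44, and all 3 genes were called (edgeR adjusted p = 0.0413, 0.0393 and 0.0490). Over all members the median log2 fold change was -1.10 without WT replicate 2, and the number lower at an unadjusted p under 0.05 was 51 of 78, beside 2.47% of all genes.

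**Figure D3:**
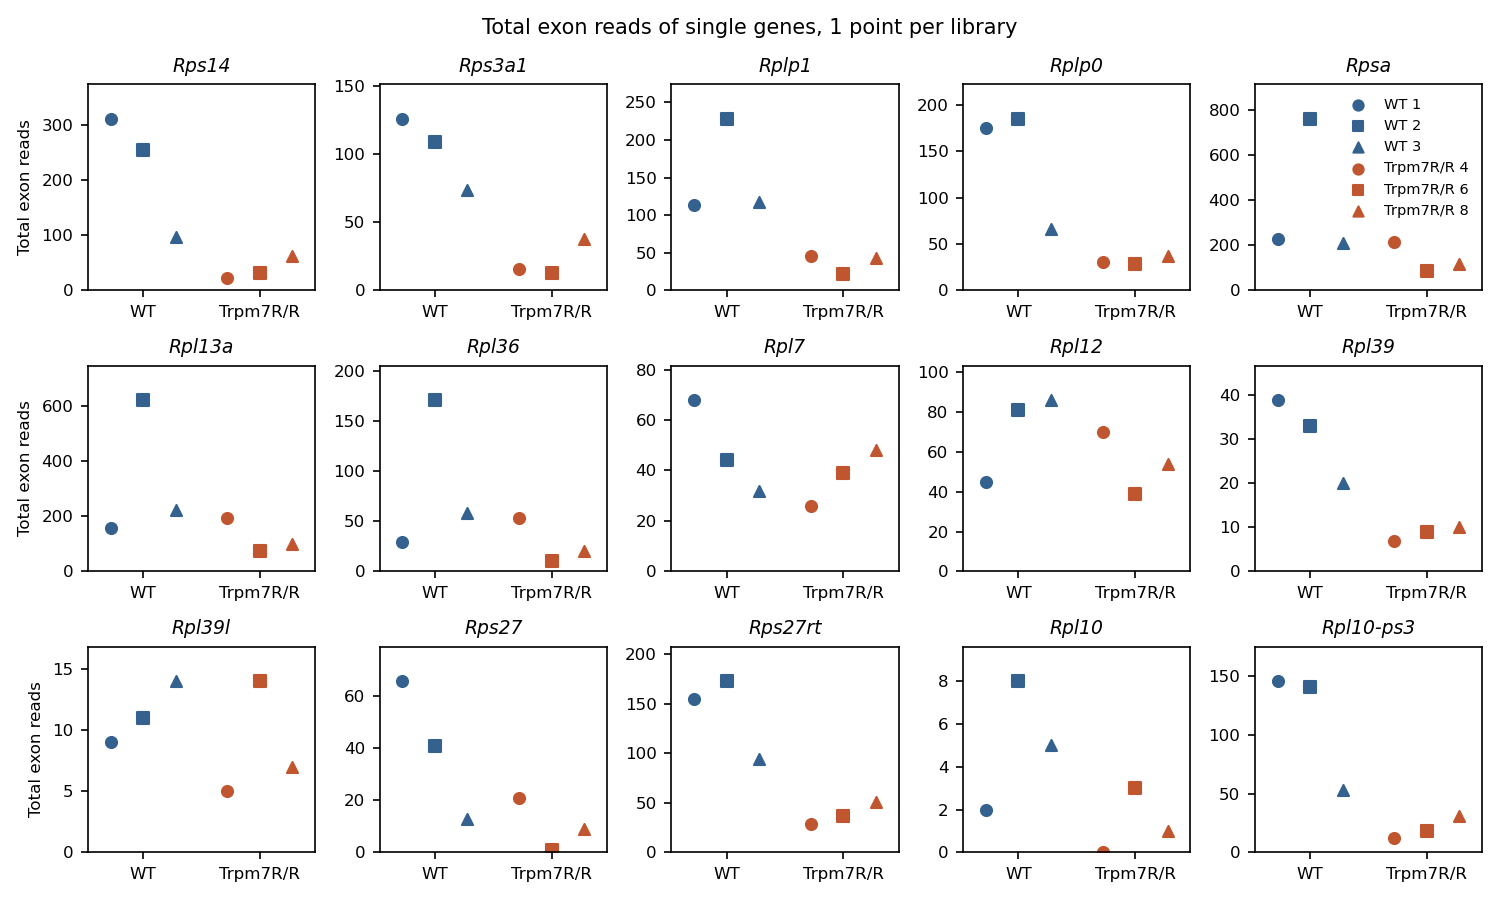
Total exon reads in each library for 15 genes, with 1 point per library, the WT libraries on the left and the Trpm7R/R libraries on the right of each panel, each panel on its own axis from 0. Rps14, Rps3a1, Rplp1 and Rplp0 show apart groups, Rpsa, Rpl13a and Rpl36 a high WT replicate 2, and Rpl7, Rpl12 and Rpl39l overlapping groups.

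Exon density over background shows how much of each member's reads lay above what introns gave. Scaled to the length of all annotated exons, Rps27rt (85.0 times), Rplp1 (69.7 times) and Rpl36 (51.4 times) were the densest in WT, and they stood at 23.5, 16.3 and 15.7 times in Trpm7R/R. In WT 79 members had at least 2 times the background, and in Trpm7R/R 58 had. Exon length joins all transcripts of a gene, so these densities and the RPKM values understate members with long minor transcripts.

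**Figure D4:**
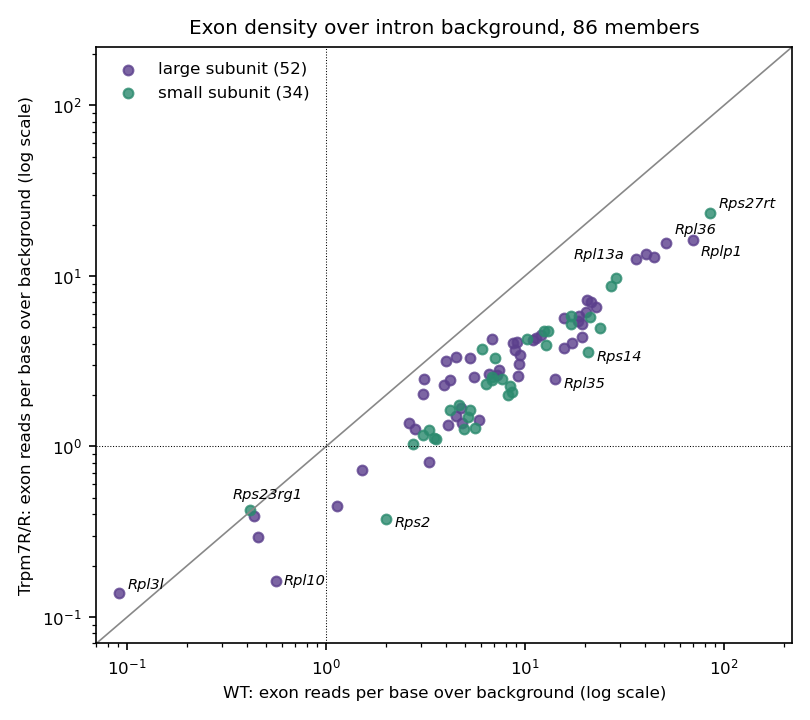
Mean exon reads per base, divided by the intron background of each library, in WT (x axis) and Trpm7R/R (y axis) for all 86 members on log axes, with large and small subunit genes in separate colours and the line of equal values. The points above the line are Rpl3l and Rps23rg1, which lie under the background in both genotypes, and the other 84 points lie below it.

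Exon-exon reads, from spliced RNA, differed more than exon reads as a whole. They did not differ more than exon reads with the background taken off, whose log2 ratio was -1.84. The members held 3515, 6210 and 2501 exon-exon reads in WT and 1282, 927 and 1352 in Trpm7R/R. In RPM the level was 221 ± 107 (SD, n = 3) for WT and 64.5 ± 11.1 (SD, n = 3) for Trpm7R/R, a log2 ratio of -1.78, and the groups did not overlap. The most such reads belonged to Rpl13a, with 121, 529 and 178 in WT and 147, 60 and 79 in Trpm7R/R. Next was Rpsa, with 118, 432 and 97 in WT and 90, 47 and 57 in Trpm7R/R. Rps24, a small subunit gene that is mutated in Diamond-Blackfan anaemia in humans, had 154, 319 and 137 in WT and 85, 55 and 88 in Trpm7R/R. For Rpsa and Rps24 no Trpm7R/R library reached a WT library, and for Rpl13a replicate 4 did. Of the 86 members 61 had fewer exon-exon reads in every Trpm7R/R library than in any WT library, beside 5.98% of all genes with such a read.

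The same difference ran through spliced RNA of other genes, so the members' values differ with the scale. With counts scaled to mapped reads, a fit chosen after seeing the data, edgeR called 57 of the 63 members tested lower, which is 90.5% of them. It called 70.2% of all 181 genes that had enough exon-exon reads, and 59.3% of the 118 among these that are not members. At an unadjusted p under 0.05 it had 58 members lower, beside 71.8% of the 181 genes and 61.0% of the 118. The median log2 fold change was -1.76 for the members, -1.70 for all 181 and -1.63 for the 118. Without the filter the same fit took in 9168 genes, most of them with few such reads, and 81 members. There the median was -1.74 for the members and -1.14 for the other 9087 genes, 66 members were lower at an unadjusted p under 0.05 beside 6.52% of all genes, and 8 were called beside 0.251%. TMM scaling within the 181 genes sets their centre near 0, and as 63 of the 181 are members it moves the members toward 0 by its construction. On that scale the members' median was -0.15 beside -0.11 for all 181, 43 of 63 values were negative, 4 were lower at an unadjusted p under 0.05 beside 6.08% of the genes, and 0 were called beside 0.0%, so these values do not compare the members with spliced RNA as a whole. As a share of all exon-exon reads of protein-coding genes, without mitochondrial and predicted genes, the members made up 12.0%, 17.7% and 15.1% in WT and 15.1%, 15.8% and 13.5% in Trpm7R/R, and the groups overlapped. Without 7 hormone genes (Ins1, Ins2, Gcg, Sst, Ppy, Pyy and Iapp) the share was 25.0%, 29.3% and 23.4% in WT and 19.2%, 19.8% and 20.7% in Trpm7R/R. On that base every Trpm7R/R library was below every WT library, by a log2 ratio of -0.38. Exon-exon reads of protein-coding genes that are neither members nor hormones stood at 609 ± 194 (SD, n = 3) RPM for WT and 261 ± 50.7 (SD, n = 3) for Trpm7R/R. Whether the members' difference belongs to these genes or to the amount of spliced RNA as a whole was not tested.

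The tables give Total reads and, as a subset of them, Unique reads. What makes a read Unique is not given in the sources used. The members had 5553, 9133 and 4400 Unique exon reads in WT and 2581, 1885 and 2523 in Trpm7R/R, with a log2 ratio of RPM of -1.44, and the groups did not overlap. Unique reads were 86.1% to 89.98% of Total reads in the members and 97.2% to 97.4% in other protein-coding genes. Of the 86 members 62 had a share of 99% or more and 9 a share under 50%. In the Unique fit 75 members passed the filter with a median of -1.42, 63 were lower at an unadjusted p under 0.05 beside 4.46% of all genes, and 0 were called beside 0.0266%. Without the filter, which members can pass through their WT counts, the median over all 86 was -1.315 and 84 values were negative. There 64 were lower at an unadjusted p under 0.05 beside 3.54% of all genes, and 22 were called beside 0.396%. The largest moves between the counts were in members with shared reads. Rpl9 (chromosome 5), with 88, 112 and 39 Total reads in WT and 23, 13 and 24 in Trpm7R/R, had 13, 22 and 13 Unique reads in WT and 16, 13 and 9 in Trpm7R/R. Its log2 fold change went from -1.95 ± 0.41 (SE) to -0.28, and the genotypes overlapped in Unique reads only. Rps23 (chromosome 13), a protein of the decoding centre, went from -1.64 to -0.89, and Rps18 (chromosome 17), from -1.92 to -1.21.

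**Figure D5:**
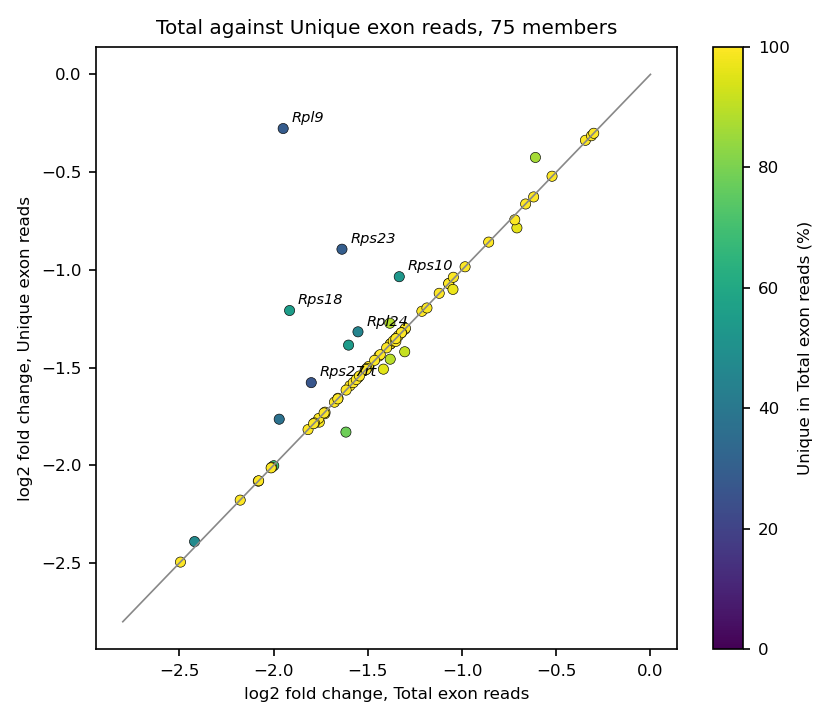
The log2 fold change of the 75 members that passed the filter in both counts, from Total exon reads (x axis) and Unique exon reads (y axis), coloured by the percentage of Unique in Total reads, with the line of equal values. Rpl9, Rps23 and Rps18 lie farthest from the line, at -0.28, -0.89 and -1.21 in Unique reads, and members with nearly all reads Unique lie on or close to it.

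The lowest Unique shares belonged to Rpl13a (1.98%), Rps27 (24.5%) and Rps27rt (26.9%). Rpl13a overlaps a predicted gene, Gm45713, on the same strand, which was given 0 exon reads, and whether this overlap sets the share was not tested. Rps27 (chromosome 3), a zinc finger protein of the small subunit, and Rps27rt (chromosome 9), listed with 1 exon, have the same coding sequence over all 255 bases. It is shown once, because no read within it can tell these genes apart.
Rps27: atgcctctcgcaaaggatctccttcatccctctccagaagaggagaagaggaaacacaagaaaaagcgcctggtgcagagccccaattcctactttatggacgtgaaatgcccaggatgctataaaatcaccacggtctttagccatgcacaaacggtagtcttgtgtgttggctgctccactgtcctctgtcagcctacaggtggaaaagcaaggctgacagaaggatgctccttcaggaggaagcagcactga
Rps27rt, the densest member, had 155, 173 and 94 exon reads in WT and 29, 37 and 51 in Trpm7R/R, with a log2 fold change of -1.80 ± 0.33 (SE, edgeR adjusted p = 0.0516), and 0 exon-exon reads. Rps27 had 66, 41 and 13 exon reads in WT and 21, 1 and 9 in Trpm7R/R, with a log2 fold change of -1.92 ± 0.68 (SE, edgeR adjusted p = 0.486). Rps27 had 60, 35 and 11 exon-exon reads in WT and 13, 0 and 6 in Trpm7R/R. The genotypes were apart for Rps27rt and overlapped for Rps27, and how their reads divide is uncertain.

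Rpl10 (chromosome X), a large subunit protein that joins late in assembly, shows the same limit more sharply. It had 2, 8 and 5 exon reads in WT and 0, 3 and 1 in Trpm7R/R, and 0 exon-exon reads. Rpl10-ps3, a row with 1 exon on chromosome 9 that the name rule leaves out and that was looked at after its values were seen, had 146, 141 and 53 in WT and 12, 18 and 31 in Trpm7R/R, with a log2 fold change of -2.43 ± 0.44 (SE, edgeR). Its sequence equals the coding sequence of Rpl10 at all 645 bases, and 18.2% of its reads were unique. Within these 645 bases, reads of the X-linked gene and of the copy cannot be told apart. Of the few reads given to Rpl10, 89.5% were Unique, and its low count is no measure of its mRNA. Processed pseudogenes with at least 95% identity over 80% of the coding sequence were found for 76 of the 86 members in GENCODE M21, with a median of 4 and up to 56 for Rpl21. Of these 542 copies 0 have an ID among the rows analysed here, which hold 0 rows typed as processed pseudogene. Rows such as Rpl10-ps3 are typed as protein-coding. All reads of Rpl21 were Unique, but this share does not show that they came from Rpl21 and not from a copy without a row.

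In the paralog pairs no member was called in the quasi-likelihood fit, and members known from other tissues had few reads. Rpl39 (chromosome X) had 39, 33 and 20 exon reads in WT and 7, 9 and 10 in Trpm7R/R, with a log2 fold change of -1.76 ± 0.42 (SE, edgeR adjusted p = 0.133). Rpl39l (chromosome 16), its paralog known from male germ cells, had 9, 11 and 14 in WT and 5, 14 and 7 in Trpm7R/R, with a log2 fold change of -0.31 ± 0.55 (SE, edgeR adjusted p = 1.00). The groups were apart for Rpl39 and overlapped for Rpl39l, which had 0 exon-exon reads. Their coding sequences differ at 23 of 156 bases, in capitals here, and all reads of both genes were Unique.
Rpl39: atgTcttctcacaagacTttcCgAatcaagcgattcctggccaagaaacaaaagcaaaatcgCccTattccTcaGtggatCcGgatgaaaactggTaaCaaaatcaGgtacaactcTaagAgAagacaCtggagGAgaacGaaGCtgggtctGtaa
Rpl39l: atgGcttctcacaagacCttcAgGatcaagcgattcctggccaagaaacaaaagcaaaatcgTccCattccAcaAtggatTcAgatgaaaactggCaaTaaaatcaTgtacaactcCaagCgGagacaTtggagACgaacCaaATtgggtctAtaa
Rpl3 (chromosome 15), of the peptidyl transferase centre, had 125, 152 and 91 reads in WT and 57, 59 and 52 in Trpm7R/R, with a log2 fold change of -1.07 ± 0.30 (SE, edgeR adjusted p = 0.224). Rpl3l, its paralog of heart and skeletal muscle, had at most 1 read in any library. Rpl10l, the testis paralog of Rpl10, had at most 6, and Rpl7l1, the paralog of Rpl7, at most 9, and none of these passed the filter.

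Other pairs were expressed together. Rpl22 (chromosome 4) had 31, 45 and 24 reads in WT and 19, 17 and 17 in Trpm7R/R, with a log2 fold change of -0.86 ± 0.38 (SE, edgeR adjusted p = 0.791). Rpl22l1 (chromosome 3), its paralog, had 47, 51 and 42 in WT and 42, 16 and 32 in Trpm7R/R, with a log2 fold change of -0.61 ± 0.36 (SE, edgeR adjusted p = 1.00). Neither was called, and Rpl22l1 in Trpm7R/R replicate 4 equalled WT replicate 3 in exon reads. Rpl22 had 11, 14 and 5 exon-exon reads in WT and 2, 4 and 4 in Trpm7R/R. Rpl22l1 had 13, 12 and 10 in WT and 2, 1 and 2 in Trpm7R/R. In these few reads the genotypes were apart for both, and neither gene passed the filter there. Rpl36a (chromosome X) had 48, 63 and 33 in WT and 22, 22 and 13 in Trpm7R/R, with a log2 fold change of -1.27 ± 0.39 (SE, edgeR adjusted p = 0.310). Rpl36al (chromosome 12), which is 87.9% identical to it in coding sequence, had 78, 147 and 106 in WT and 41, 32 and 32 in Trpm7R/R, with a log2 fold change of -1.60 ± 0.32 (SE, edgeR adjusted p = 0.0653). The genotypes were apart for both, and Unique reads were 33.3% of Total for Rpl36a and 54.4% for Rpl36al. Rps27l (chromosome 9), a p53 target in human cells, had 40, 24 and 25 reads in WT and 4, 9 and 8 in Trpm7R/R, with a log2 fold change of -2.01 ± 0.46 (SE, edgeR adjusted p = 0.108), and all its reads were unique. With total gene reads, introns included, it was -0.57.

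The X-linked members are set beside the X reads above. Rps4x had 112, 180 and 77 exon reads in WT and 21, 47 and 56 in Trpm7R/R, with a log2 fold change of -1.51 ± 0.40 (SE, edgeR adjusted p = 0.185). Its lowest value was in replicate 4, which carries Y reads, and the libraries with high X reads were between it and WT, as was the case for Rpl39. Rpl36a went the other way, with 22 reads in replicates 4 and 6 and its lowest value of 13 in replicate 8, and Rpl10 had its highest Trpm7R/R value of 3 in replicate 6. With all genes of X and Y left out, 8 of 75 members were called lower beside 0.265% of the genes tested, and the median was -1.43.

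Genes that work with the ribosome differed in how they compared with the members. Among ribosomal proteins with other names, Rack1, the small subunit scaffold for protein kinase C, had 67, 51 and 34 exon reads in WT and 17, 16 and 22 in Trpm7R/R, with a log2 fold change of -1.42 ± 0.37 (SE, edgeR adjusted p = 0.169). Fau, a ribosomal protein made as a fusion with a ubiquitin-like protein, had 33, 94 and 37 in WT and 33, 9 and 17 in Trpm7R/R, with a log2 fold change of -1.43 ± 0.49 (SE, edgeR adjusted p = 0.432). The genotypes were apart for Rack1 and met in Fau. Mitochondrial ribosomal proteins, the part of the translation machinery that serves the mitochondrial genome, had a median log2 fold change of 0.04 over 35 tested of 78, with 1 lower (Mrpl33, -1.03), 0 higher at an unadjusted p under 0.05 and 0 called. The 35 stood at a median of 1.28 times the background, against 5.43 times for the 78 members tested, so they lay close to the background.

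Factors that build ribosomes were close to the background as well. Of 44 assembly factors 21 were tested, with a median log2 fold change of -0.24 and a median density of 1.15 times the background, and 3 were lower (Emg1, Gnl2 and Eif6), 0 higher at an unadjusted p under 0.05 and 0 called. Of 13 RNA polymerase I genes found, 3 were tested, with 0 lower or higher and a median of -0.08. Of 12 genes of mTORC1 and S6 kinase signalling 9 were tested, with a median of -0.27, and Larp1 (-1.38), Eif4ebp1 (-1.27) and Tsc2 (-1.11) had an unadjusted p under 0.05, with adjusted p values in edgeR between 0.287 and 0.803. Larp1, the TOP mRNA binding protein, had 27, 60 and 33 reads in WT and 16, 16 and 12 in Trpm7R/R. Of 10 elongation factors and other TOP transcripts 9 were tested, with a median of -0.98, 5 lower at an unadjusted p under 0.05 and 0 called, with Tpt1 at -2.11 and Eef1a1 at -2.001.

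Markers of endocrine cells were lower in Trpm7R/R, and those of most other cell types that islet preparations hold lay near the background. At an unadjusted p under 0.05 all 7 endocrine markers were lower, 1 of them also after adjustment (Ppy, edgeR adjusted p = 0.0255), with a median log2 fold change of -1.97. Acinar markers were at 6.69 to 9.01 RPM of exon reads in Trpm7R/R and 7.57 to 11.4 in WT, and endothelial markers at 3.74 to 8.31 and 3.61 to 5.74. Immune markers were at 4.36 to 13.4 in Trpm7R/R and 7.57 to 12.2 in WT, stellate markers at 4.42 to 4.97 and 3.90 to 5.71, and duct markers at 1.14 to 1.98 and 1.12 to 2.41. The endocrine markers tested stood at a median of 334 times the background. Those of endothelial, immune, stellate and duct cells stood at 1.13, 1.98, 0.983 and 1.36 times. These values are too close to the background to show whether those cells differed. Only 1 acinar marker (Amy2a5) and 1 immune marker (Ptprc) were tested. None of the 29 markers had 0 reads over all libraries, and their part in the members' levels was not tested.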

How the data were processed

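Islet RNA of 3 WT and 3 Trpm7R/R mice was sequenced by the authors, who used low-input chemistry and a NovaSeq instrument, mapped the reads and deposited 1 gene table per library. The tables hold raw counts, which the authors deposited as Total and Unique reads in exons, introns and across exon-exon junctions, and RPKM values, which the authors scaled to exon length and mapped reads. The submitters' processing notes name mm10, but positions in the tables differ from that build, so chromosomes alone are given. The aligner was not given in the sources used here. Tables of the authors' own comparison, with fold changes and p-values, were not used.

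Mapped reads are those implied by RPKM, and RPM values were computed from counts and mapped reads. Exon counts were tested with edgeR 4.0.16 (quasi-likelihood, TMM, filterByExpr with a minimum of 10 counts, R 4.3.3), with genotype as the only term and Benjamini-Hochberg adjustment over all genes tested. DESeq2 1.42.0 and other alternatives were tried, as was leaving out each library. The fit was tested on simulated data. The p-values measure the spread between libraries, 1 per mouse. Named genes were the 4 members of each subunit with the smallest p, the 3 with the highest RPKM, paralog pairs, X-linked members, those with the lowest Unique share, the largest move between Total and Unique reads and the most exon-exon reads, with Fau and Rack1, and 1 further gene of the rule is not reported here. Members, lists and this rule were chosen with earlier results of these data known. Start sites come from RefSeq and coding sequences from GENCODE M21, compared with BLAST 2.17.0. Tables and plots were made with Python 3.11.15, pandas 2.3.3 and matplotlib 3.10.9.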

Additional observations from a re-analysis of the deposited data

How the results depend on the processing

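The median log2 fold change of the members in Total exon reads lay between -1.48 and -1.37 under all alternatives other than leaving out a library, and was -1.42 over members with at least 90% Unique reads, an alternative chosen after seeing the data. The number of members called lower in Total exon reads was 0 in the quasi-likelihood fit, 16 with scaling to mapped reads, 24 without the filter, 29 with the Wald test of DESeq2, 40 with the likelihood ratio test and 8 without genes of X and Y, where these fits called 0.0257%, 0.394%, 0.411%, 0.831%, 1.38% and 0.265% of all genes lower. Leaving out a library gave 0 to 39 calls, with 5 without WT replicate 3 (0.242% of all genes) and 39 without Trpm7R/R replicate 4 (1.19%), and 51 to 75 members lower at an unadjusted p under 0.05, beside 2.47% to 8.85% of all genes. In the same way the median ranged from -1.63 to -1.10 for all members, from -1.60 to -0.98 for the large subunit, from -1.68 to -1.31 for the small subunit, from -1.56 to -1.09 for Unique reads and from -2.05 to -1.33 for exon-exon reads, with the value nearest 0 always without WT replicate 2. The exon-exon median was -0.15 with TMM scaling, and the log2 ratio of the members' share of exon-exon reads was -0.01 with and -0.38 without hormone genes, choices made after seeing the data. The log2 ratio of exon reads was between -1.69 and -1.10 and that of exon-exon reads between -2.03 and -1.32 when a library was left out. The log2 fold change of Rpl7 ranged from -0.49 to 0.11 when a library was left out and turned sign without WT replicate 1, and that of Rpl39l turned to 0.0867 with total gene reads. Total gene reads also moved Rps14 to -1.37, Rpl22 to -0.13 and Rps27l to -0.57, and the cause was not tested. Fau was at -0.79 without WT replicate 2, and Rps27 at -1.31 without WT replicate 1 and -2.91 without Trpm7R/R replicate 4. No paired analysis was possible because the genotypes share no replicate numbers. Members under about 10 reads in a Trpm7R/R library, 18 of the 78 tested, are limited by depth.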

Other observations

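Copies of ribosomal protein genes and a predicted gene, all outside the name rule and looked at after their values were seen, had different patterns. Rpl9-ps6 (chromosome 19) had 30, 110 and 57 exon reads in WT and 60, 32 and 19 in Trpm7R/R, of which 8.12% were unique, and differs from the coding sequence of Rpl9 at 1 of 579 bases. Rpl36a-ps1 (chromosome 14) had 22, 18 and 16 in WT and 14, 7 and 18 in Trpm7R/R, of which 31.6% were unique. Gm11808 (chromosome 4), a predicted gene with 1 exon, had 51, 44 and 13 in WT and 4, 6 and 0 in Trpm7R/R. Of its reads 8.47% were unique, and whether it is a copy of a ribosomal protein gene was not tested. The genotypes overlapped for Rpl9-ps6 and Rpl36a-ps1 and were apart for Gm11808, and all 3 had 0 exon-exon reads.

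Exon-exon reads per 100 exon reads of the members were 55.7, 58.6 and 49.5 in WT and 43.7, 44.2 and 48.2 in Trpm7R/R, so that the groups lay close to each other without overlap. The background was not taken off the exon reads here. These exon reads stood at 6.57 to 13.7 times the background in WT and 3.14 to 3.49 times in Trpm7R/R.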
